A study of Mus musculus with 13 samples.

Results

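Imprinted genes are genes of which the cell uses mainly the copy inherited from the mother or mainly the copy inherited from the father. Here 47 named imprinted genes were looked for among the probe sets of the array, a probe set being the group of short probes that together read a transcript. A probe set was taken where the platform annotation lists the gene as its only symbol. This gave 82 probe sets of 38 genes, out of 17097 genes and 45037 probe sets that are not array controls. The other 9 genes (H19, Peg10, Asb4, Mest, Rtl1, Igf2r, Zrsr1, Nnat and Gatm) had no such probe set and were not analysed here. Of the 38 genes, 19 had more than 1 probe set.

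The study measured RNA of squamous skin tumours raised in mice by painting the skin with DMBA, a carcinogen, and TPA, a promoter of tumour growth, in 7 tumours of G9a cKO (conditional knockout) mice and 6 tumours of G9a WT mice. Both groups received the same chemicals on the back, in animals that were 8 weeks old at the start, first for 6 weeks and then as TPA for up to 20 weeks. The Cre driver behind the deletion, the cells in which it acts and the sex of the mice are not given in the labels, nor whether each tumour came from its own mouse. The p-values below therefore measure the spread between these arrays.

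Imprinting is set in the germ line, when DNA methylation is placed on control regions of the maternal or the paternal chromosome. It is kept in body cells by proteins that recognise the methylated copy, among them the zinc finger protein ZFP57 and its partner TRIM28, and it acts over clusters of neighbouring genes, often through a long non-coding RNA. G9a (gene Ehmt2) is an enzyme that methylates histone H3 at lysine 9, which marks silent chromatin, and in the mouse placenta it helps to silence imprinted genes next to the non-coding RNAs Kcnq1ot1 and Airn. An array that reads total RNA does not tell the maternal transcript from the paternal one, so loss of imprinting cannot be told apart from a higher output of the active copy.

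Values are log2 expression after the authors' normalization, on which 1 unit is a doubling, and all differences are cKO minus WT. A probe set was called where limma's adjusted p (Benjamini-Hochberg over all 45037) was below 0.05. Neighbouring arrays of a group mirrored each other around the group mean (correlations between -0.95 and -0.88 in 6 pairs), for which the labels give no reason. The fit was repeated with a term for these pairs, and "rose" and "fell" are kept for probe sets called in both fits. Each pair lies within a group, so that fit sets the same difference against the spread within pairs, which the mirroring widens. It serves as a stricter threshold and does not correct for the pairs. A level of 4.31, the upper quartile of 23 nonspecific control probe sets, served as background, and 20 of the 82 probe sets lay below it on all arrays. Ehmt2 checked the labels: its second probe set averaged 6.01 ± 0.10 in cKO and 8.33 ± 0.19 in WT tumours (SD, n = 7 and 6), 5.02-fold lower in cKO (adjusted p = 1.3e-09). Its brighter probe set averaged 7.42 in cKO and 7.29 in WT tumours (adjusted p = 0.163), and where either lies relative to the deleted part is not given. The keratinocyte genes Krt5 (12.75 in cKO and 12.62 in WT) and Krt14 (12.23 in cKO and 12.35 in WT) were bright in both groups, as in the keratinocytes from which squamous tumours arise.

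Start regions of 4 members are shown as examples of members that rose in cKO tumours by the test, with and without the letters described next. Each is the 250 bases before an annotated start, from RefSeq (build GRCm38.p6), written 5′ to 3′ on the strand of the gene. Capitals mark TGCCGC or its reverse complement GCGGCA, the letters that ZFP57 recognises when the site is methylated. The windows lie at chr12:109540746-109540995 on the plus strand (Meg3), chr2:152686898-152687147 on the plus strand (Mcts2), chr7:6696433-6696682 on the minus strand (Zim1) and chr7:6730420-6730669 on the minus strand (Peg3).
Meg3: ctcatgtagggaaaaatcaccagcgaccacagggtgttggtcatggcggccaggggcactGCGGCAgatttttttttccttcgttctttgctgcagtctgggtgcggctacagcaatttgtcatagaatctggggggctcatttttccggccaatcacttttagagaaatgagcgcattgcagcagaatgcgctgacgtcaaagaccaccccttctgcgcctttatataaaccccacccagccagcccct
Mcts2: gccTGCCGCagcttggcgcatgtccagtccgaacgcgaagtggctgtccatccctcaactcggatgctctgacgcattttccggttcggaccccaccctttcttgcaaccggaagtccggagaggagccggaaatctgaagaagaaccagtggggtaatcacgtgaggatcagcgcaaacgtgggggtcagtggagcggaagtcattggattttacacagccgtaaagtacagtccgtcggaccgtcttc
Zim1: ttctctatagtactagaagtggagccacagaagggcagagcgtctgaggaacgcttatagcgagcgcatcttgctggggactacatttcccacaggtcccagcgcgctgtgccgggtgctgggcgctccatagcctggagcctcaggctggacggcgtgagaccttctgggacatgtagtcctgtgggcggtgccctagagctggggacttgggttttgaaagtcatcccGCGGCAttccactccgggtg
Peg3: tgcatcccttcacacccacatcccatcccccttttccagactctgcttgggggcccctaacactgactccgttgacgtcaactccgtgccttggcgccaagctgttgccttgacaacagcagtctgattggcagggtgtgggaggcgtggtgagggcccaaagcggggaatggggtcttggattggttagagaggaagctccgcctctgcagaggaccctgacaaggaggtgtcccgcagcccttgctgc
The first 3 hold the letters once and the Peg3 window does not hold them. The windows hold 10, 20, 14 and 8 CpG, in the order printed, against a median of 12 over 51 windows of 33 measured members and 6 over all 32851 windows. The letters, searched on both strands, were found in 8 of the 51 member windows (15.7%) and in 8.68% of all windows. The windows of Snrpn, Usp29, Rasgrf1 and Ppp1r9a, which also rose on at least 1 probe set, do not hold them. Zdbf2, which fell, holds them 3 times in a window, and windows of the uncalled Calcr, Copg2, Osbpl5 and Plagl1 hold them once each. Meg3, Zdbf2, Calcr and Osbpl5 have further annotated starts, whose windows are not printed and do not hold the letters. The Peg3 window shares 163 bases with that of Usp29, which is read from the opposite strand. A match describes these letters and is not evidence of binding.

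Across all members, 39 of 82 probe sets were called, 24 higher and 15 lower in cKO tumours, a share of 47.6% against 47.9% of all probe sets. By direction these were 29.3% and 18.3%, against 24.4% and 23.4% of all. In both fits 15 rose and 6 fell, 18.3% and 7.32% against 13.9% and 13.1% of all, and together 25.6% against 27%. The groups did not overlap on 20 probe sets (24.4%, against 24.2% of all). A called difference of at least 0.5 was reached by 9 (11%, against 9.13% of all), and the median difference was 0.04 against 0.0004 over all probe sets. By the brightest probe set of each gene, 11 of 38 genes were called higher (28.9%, against 26.1% of all genes) and 7 lower (18.4%, against 20.4%), together 47.4% against 46.5%. In both fits 7 genes rose and 3 fell (18.4% and 7.89%, against 15.2% and 11%), together 26.3% against 26.2%. The groups did not overlap for 11 genes (28.9%, against 23%), and 4 were called with a difference of at least 0.5 (10.5%, against 8.71%). These shares lie near those of the whole array, so the counts are no result about imprinted genes as a group. Among the called probe sets, 21 differed by no more than 0.31, the size reached by a nonspecific control, and 18 by more. The controls differed by -0.31 to 0.08, so they reached this size only as lower in cKO. Of the 21, 13 were called higher and 8 lower.

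**Figure D1:**
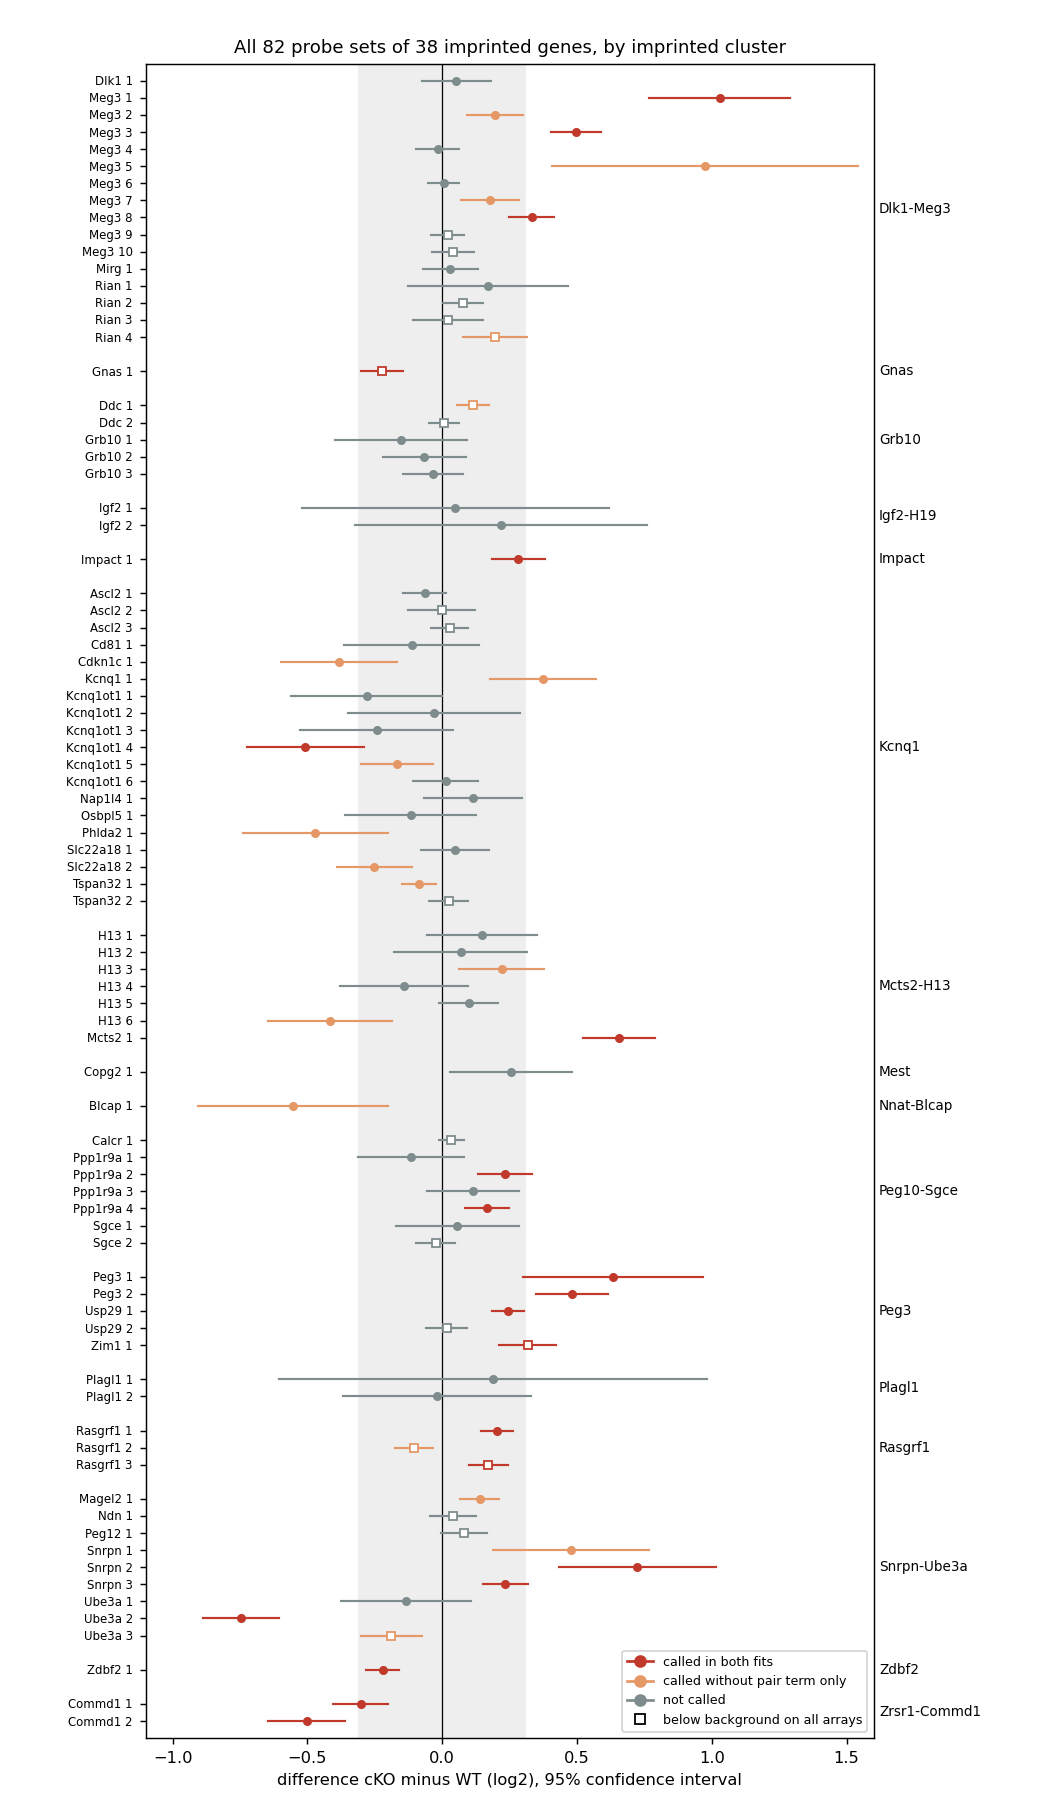
Difference between cKO and WT tumours (log2) for all 82 probe sets, with 95% confidence intervals, by imprinted cluster; numbers after the gene run from its brightest probe set down. Red marks the 21 probe sets called in both fits, orange the 18 called only without the pair term, and open squares those below background on all arrays. The grey band spans, on both sides, the size reached by a nonspecific control that was lower in cKO (0.31).

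In the Dlk1-Meg3 cluster on chromosome 12, the maternal non-coding RNA Meg3 rose in cKO tumours and the paternal Dlk1 did not differ beyond its spread. Meg3 is a long RNA with growth-restraining activity in cell culture, and Dlk1 is a membrane protein that holds back fat cell differentiation. The brightest Meg3 probe set ran over 6.57, 6.90 and 7.34 (lowest, median, highest) in cKO tumours, against 5.61, 5.88 and 6.13 in WT tumours. Every cKO tumour lay above every WT tumour. The means were 6.89 ± 0.26 in cKO and 5.86 ± 0.19 in WT (SD), a difference of 1.03 (95% interval 0.77 to 1.29) or 2.04-fold (adjusted p = 2.65e-05, and 0.00383 with the pair term).

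The 10 probe sets of Meg3 did not move alike. Probe set 1, like the only probe set of Dlk1, is of a design whose probes can also read similar transcripts. Probe set 3 (6.15 in cKO and 5.65 in WT, difference 0.50) and probe set 8 (4.28 in cKO and 3.95 in WT, difference 0.33) also rose. On probe set 8 all 6 WT tumours and 4 cKO tumours were below background, so its difference is that of the measured values and no fold is given. Probe set 5 ran over 4.97, 5.36 and 6.19 in cKO tumours, against 3.78, 4.38 and 5.63 in WT tumours, with a difference of 0.97 called only without the pair term (adjusted p = 0.00837, and 0.0556 with it). Its groups overlapped because of WT replicate 8, at 5.63. Probe sets 2 and 7 were called only without the pair term (differences 0.20 and 0.18), and on probe set 7 all 6 WT and 6 of 7 cKO tumours were below background. Probe sets 4, 6, 9 and 10 were not called, with differences between -0.02 and 0.04. Dlk1 averaged 4.94 ± 0.10 in cKO and 4.89 ± 0.12 in WT tumours (difference 0.05, interval -0.08 to 0.18). The non-coding RNAs Rian and Mirg, expressed from the maternal copy like Meg3, were near background. Of their 5 probe sets, 1 was called higher (Rian probe set 4, below background on all arrays, only without the pair term).

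The paternal genes Peg3 and Usp29 of the Peg3 cluster on chromosome 7 rose, Peg3 from levels near background. Peg3 encodes a zinc finger protein and Usp29 a deubiquitinating enzyme, and both start from the shared region printed above. Peg3 probe set 1 ran over 4.50, 4.66 and 4.92 in cKO tumours, against 3.55, 3.89 and 4.69 in WT tumours. The groups overlapped through 1 WT tumour, and 4 of 6 WT tumours were below background. The difference was 0.63 (interval 0.30 to 0.97) as measured (adjusted p = 0.00469, and 0.0389 with the pair term), and no fold is given because the WT mean (4.03) was below background. Peg3 probe set 2 ran over 4.29, 4.40 and 4.58 in cKO tumours, against 3.81, 3.90 and 4.13 in WT tumours. These groups did not overlap, and because all WT tumours were below background the change is given only as at least 1.07-fold higher (adjusted p = 5.43e-05). Usp29 rose on its brighter probe set (5.71 ± 0.04 in cKO and 5.46 ± 0.04 in WT, difference 0.24) and not on the other, which was below background. Zim1, a zinc finger gene expressed from the maternal copy, also rose by the test (difference 0.32) but lay below background on all arrays.

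In the Snrpn-Ube3a cluster on chromosome 7 the paternal Snrpn rose and a probe set of the maternal Ube3a fell. Snrpn encodes a protein of the spliceosome, and Ube3a is the ubiquitin ligase whose maternal loss in the brain causes Angelman syndrome. Snrpn probe set 2 ran over 7.27, 7.62 and 7.98 in cKO tumours, against 6.54, 6.92 and 7.27 in WT tumours. The lowest cKO tumour and the highest WT tumour met at the same level. The difference was 0.72 (interval 0.43 to 1.01), or 1.65-fold (adjusted p = 0.000779, and 0.0165 with the pair term). Snrpn probe set 3 rose by 0.23, and the brightest, with 7.86 ± 0.23 in cKO and 7.38 ± 0.29 in WT tumours, was called only without the pair term (difference 0.48, adjusted p = 0.0106, and 0.0686 with it). Probe set 2 is of a design whose probes can also read similar transcripts. The paralog Snrpb was lower in cKO on both its probe sets, with 10.22 in cKO and 10.67 in WT on the brighter (difference -0.46, adjusted p = 2.54e-07).

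Ube3a probe set 2 ran over 6.09, 6.14 and 6.33 in cKO tumours, against 6.80, 6.89 and 7.18 in WT tumours. No cKO tumour reached the lowest WT tumour. The difference was -0.75 (interval -0.89 to -0.60), 1.68-fold lower in cKO (adjusted p = 3.05e-06, and 0.00123 with the pair term). The brighter probe set of Ube3a was not called, with 6.53 ± 0.21 in cKO and 6.66 ± 0.21 in WT tumours (adjusted p = 0.343). The dimmest, below background, was called lower only without the pair term. The paternal antisense RNA from the Snrpn locus overlaps Ube3a, and as no source used here says that strand was kept, its signal cannot be told apart from that of Ube3a. Magel2, a paternal ubiquitin ligase cofactor, was at 4.56 in cKO and 4.42 in WT tumours (difference 0.14, only without the pair term). The paternal genes Ndn and Peg12 were below background on all arrays.

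The paternal retrogene Mcts2 on chromosome 2, a translation factor gene copied from Mcts1 into an intron of H13, rose in cKO tumours. It ran over 6.29, 6.39 and 6.52 in cKO tumours, against 5.67, 5.72 and 6.03 in WT tumours. The groups did not overlap, and the difference of 0.65 (interval 0.52 to 0.79) was 1.57-fold (adjusted p = 5.34e-06, and 0.00142 with the pair term). The parent gene Mcts1 averaged 5.24 in cKO and 5.21 in WT tumours (difference 0.03, adjusted p = 0.544). The host H13, a signal peptide peptidase expressed from the maternal copy, had 6 probe sets. Its brightest was not called (7.95 in cKO and 7.80 in WT). Probe set 3 was called higher and probe set 6 lower, both only without the pair term. The difference of probe set 3 was 0.22. Probe set 6 was below background in all 7 cKO tumours (measured means 4.08 in cKO and 4.50 in WT), so it is given only as at least 1.14-fold lower in cKO (adjusted p = 0.00625).

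**Figure D2:**
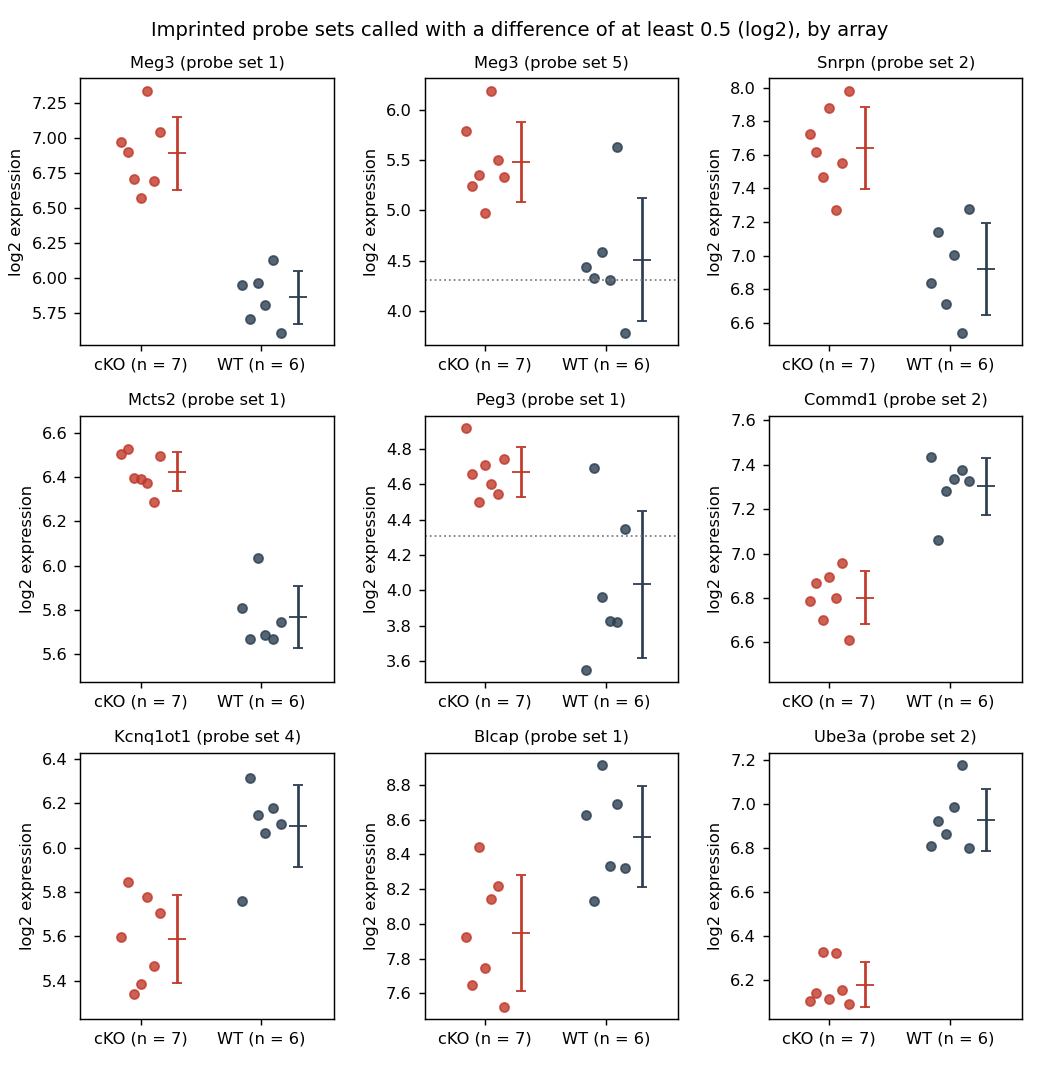
Log2 expression of each tumour for the 9 imprinted probe sets called with a difference of at least 0.5, cKO left (n = 7) and WT right (n = 6), with mean and SD beside the points; the dotted line is background (4.31), and each panel has its own axis. On Meg3 probe set 1, Mcts2, Commd1 and Ube3a probe set 2 the groups do not overlap, and Meg3 probe set 5 and Blcap were called only without the pair term.

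Commd1 on chromosome 11, a regulator of copper handling and of NF-kappaB, fell in cKO tumours on both its probe sets. Probe set 2 ran over 6.61, 6.80 and 6.96 in cKO tumours, against 7.06, 7.33 and 7.44 in WT tumours. All cKO tumours were below all WT tumours, by a mean of -0.50 (interval -0.64 to -0.36), 1.42-fold lower (adjusted p = 6.39e-05, and 0.00566 with the pair term). Probe set 1 averaged 7.12 ± 0.05 in cKO and 7.42 ± 0.11 in WT tumours (difference -0.30). Zrsr1, the imprinted gene inside its intron, was not analysed here.

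In the Kcnq1 cluster, 1 of 19 probe sets fell, and a further 5 were called lower and 1 higher only without the pair term. Called in either direction were 36.8%, against 47.9% of all probe sets, and called lower 31.6%, against 23.4%. In both fits the share called was 5.26%, against 27% of all. The cluster is governed by the paternal non-coding RNA Kcnq1ot1, which runs antisense to the potassium channel gene Kcnq1. Kcnq1ot1 probe set 4 ran over 5.34, 5.60 and 5.84 in cKO tumours, against 5.76, 6.13 and 6.32 in WT tumours. The groups overlapped, and the difference was -0.51 (interval -0.73 to -0.29), 1.42-fold lower (adjusted p = 0.00123, and 0.0244 with the pair term). Its brightest probe set was not called, with 8.61 ± 0.28 in cKO and 8.89 ± 0.20 in WT tumours (adjusted p = 0.0914). The other 4 had differences between -0.24 and 0.01. Of these, probe set 5 was called lower only without the pair term (difference -0.17, adjusted p = 0.0406, and 0.143 with it). As no source used here says that strand was kept, Kcnq1ot1 and unspliced Kcnq1 RNA cannot be told apart.

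The maternal genes of this cluster were called only without the pair term, or not at all. Cdkn1c, which encodes the cell cycle inhibitor p57, averaged 4.52 ± 0.12 in cKO and 4.90 ± 0.25 in WT tumours (difference -0.38, adjusted p = 0.00664, and 0.0543 with the pair term). Phlda2, a growth-restraining gene of the placenta, averaged 6.62 ± 0.19 in cKO and 7.09 ± 0.28 in WT tumours (difference -0.47, adjusted p = 0.00736, and 0.0528 with it). Kcnq1 had 6.11 ± 0.19 in cKO and 5.73 ± 0.15 in WT tumours (difference 0.37, adjusted p = 0.00458, and 0.0501 with it). The brightest genes of the cluster, Cd81 (10.29 in cKO and 10.40 in WT) and Nap1l4 (9.69 in cKO and 9.57 in WT), were not called. Ascl2 and Osbpl5 were not called either, and Slc22a18 and Tspan32 each had 1 of 2 probe sets called lower without the pair term (differences -0.25 and -0.09).

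The imprinted growth factor Igf2, a paternal ligand of the insulin-like growth factor receptors, did not differ beyond its spread. Its brighter probe set ran over 5.01, 5.60 and 7.01 in cKO tumours, against 5.39, 5.66 and 6.04 in WT tumours. The highest value belonged to cKO replicate 6, which was also highest on the other probe set, at 6.05. The difference was 0.05 (interval -0.52 to 0.62), and -0.16 without that tumour. Plagl1, a paternal zinc finger gene that restrains growth, had the widest confidence interval among the 82 probe sets, with 8.57 ± 0.57 in cKO and 8.39 ± 0.85 in WT tumours (interval -0.61 to 0.98). Grb10, an adaptor that dampens insulin receptor signals, was not called on any of 3 probe sets (differences -0.15, -0.07 and -0.03).

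The remaining members lie outside these clusters or in small ones. Impact, a paternal regulator of translation, rose by 0.28 (5.25 ± 0.08 in cKO and 4.97 ± 0.09 in WT). Rasgrf1, a paternal Ras exchange factor, rose on its brightest probe set by 0.20 and also on a dim one, while the remaining dim one was called lower without the pair term (-0.11). Ppp1r9a, which binds actin in neurons, rose on 2 of 4 probe sets. These were probe set 2 (0.23) and probe set 4 (0.17), the last with all 6 WT and 6 of 7 cKO tumours below background. The brightest probe set of Ppp1r9a was not called (4.97 in cKO and 5.09 in WT, difference -0.12). Zdbf2 fell by 0.22 (4.36 ± 0.04 in cKO and 4.59 ± 0.05 in WT). Gnas fell by the test but lay below background on all arrays (3.61 in cKO and 3.84 in WT). Blcap ran over 7.52, 7.92 and 8.44 in cKO tumours, against 8.13, 8.48 and 8.91 in WT tumours. These overlapped, and the difference of -0.55 was called only without the pair term (adjusted p = 0.0139, and 0.0778 with it). Copg2, Sgce and Calcr were not called, and Ddc was called (0.11) below background without the pair term.

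By expressed copy, 8 of 16 paternal genes were called higher and 1 lower by the brightest probe set, with a median difference of 0.13, where 26.1% of all genes were called higher and 20.4% lower. Of 20 maternal genes, 3 were called higher and 5 lower, with a median of -0.02. In both fits 5 paternal genes rose (31.2%) and 1 fell (6.25%), and 2 maternal genes rose (10%) and 1 fell (5%). Over all genes 15.2% rose and 11% fell. Ddc, among the paternal genes called higher, and Zim1, among the maternal genes that rose, lay below background on all arrays. Grb10 and Gnas, whose expressed copy depends on tissue or transcript, were left out. The copy of the other genes was assigned beforehand and not measured in these tumours. For some of them it may depend on tissue as well. The difference between the copies was not tested. Over all probe sets of these genes the contrast was smaller. Of 31 paternal probe sets 12 were called higher and 4 lower (median 0.06). Of 47 maternal ones 12 were called higher and 10 lower (median 0.03). On the whole array 24.4% of probe sets were called higher and 23.4% lower.

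**Figure D3:**
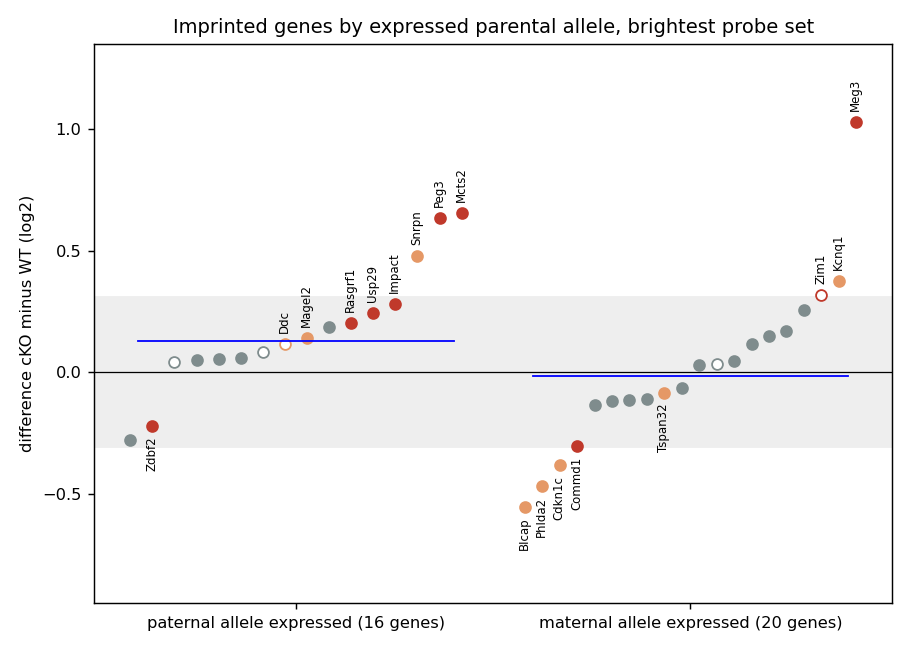
Difference between cKO and WT tumours (log2) for the brightest probe set of each gene. Genes are ordered by size within the 16 assigned to the paternal and the 20 assigned to the maternal copy. Blue lines are medians (0.13 and -0.02). Red genes were called in both fits, orange ones only without the pair term, open circles lay below background on all arrays, and the grey band spans 0.31 either side of 0.

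Markers of stroma were also higher in cKO tumours, to be read against the 15.2% of all genes that rose and the 11% that fell in both fits. Of 20 fibroblast genes, 12 rose in cKO tumours and 8 were not called, with a median difference of 0.72. Their mean level ran from 6.51 to 7.18 over cKO tumours, against 5.71 to 6.26 over WT tumours, and 3 of the 20 were below background on all arrays. Of 15 endothelial genes, 8 rose, 3 were called higher only without the pair term and 4 were not called (median 0.89, mean level 5.58 to 5.96 in cKO and 4.46 to 5.53 in WT). Of 14 macrophage genes, 6 were called higher, of which 4 rose, 1 was called lower only without the pair term and 7 were not called. Their mean level was 4.64 to 5.27 in cKO and 4.54 to 4.66 in WT. Of 15 keratinocyte genes, 1 rose and 2 fell (mean level 10.46 to 11.30 in cKO and 10.70 to 11.15 in WT). Of 14 skeletal muscle genes, 4 rose and 2 fell (mean level 4.89 to 4.98 in cKO and 4.81 to 4.89 in WT). Of 7 adipocyte genes, 2 rose and 1 fell. In these bulk samples more cells of a type and more RNA per cell cannot be told apart, and the part of these markers in the imprinted genes was not tested. WT replicate 8 had the highest fibroblast level and the highest Meg3 level (6.13) among WT tumours, and cKO replicate 6 had the highest of both among cKO tumours. Other tumours did not keep this order. WT replicate 4 was next to WT replicate 8 in fibroblast level (6.09), with Meg3 at 5.71. cKO replicate 5, at a fibroblast level of 6.87, had the lowest Meg3 level among cKO tumours (6.57). On Peg3 probe set 1 the highest tumours were cKO replicate 1 at 4.92 and WT replicate 4 at 4.69, while cKO replicate 6 was at 4.60 and WT replicate 8 at 3.82. How these levels go together over the tumours was not tested.

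**Figure D4:**
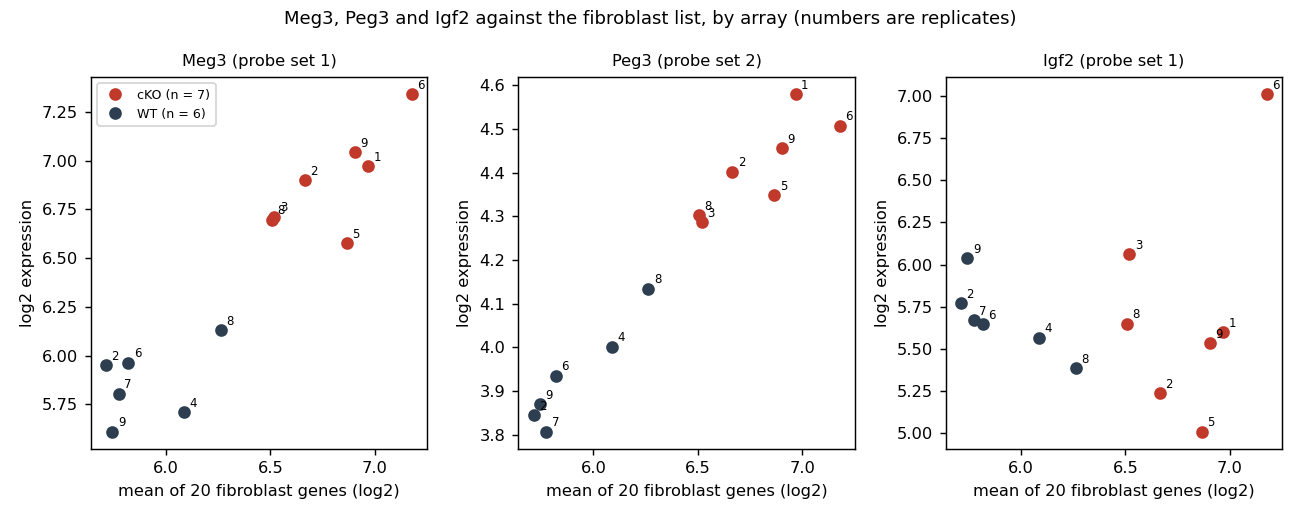
Log2 expression of Meg3, Peg3 and Igf2 in each tumour against the mean log2 level of 20 fibroblast marker genes; each point is a tumour with its replicate number, red for cKO (n = 7) and dark for WT (n = 6). The panels show Meg3 probe set 1, Peg3 probe set 2 and Igf2 probe set 1. The groups are apart on both axes in the Meg3 and Peg3 panels, and cKO replicate 6 stands alone in the Igf2 panel at 7.01.

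Genes that act with the imprinted ones or on them were called in both fits at shares near that of all genes (26.2%). Of 14 measured genes of the insulin-like growth factor axis, 3 rose and 10 were not called (median difference 0.06). Those that rose were the ligand Igf1 (5.65 in cKO and 5.28 in WT), the RNA-binding protein gene Igf2bp1 (4.83 in cKO and 4.60 in WT) and Igfbp5, which was below background. The binding protein gene Igfbp3 was at 9.72 in cKO and 10.50 in WT tumours (difference -0.78) and called lower only without the pair term. Of 21 measured genes that set or keep imprints, 1 rose and 4 fell (median difference -0.11). The Polycomb genes Suz12 (8.60 in cKO and 8.91 in WT) and Eed (8.29 in cKO and 8.65 in WT), the histone-binding Rbbp4 (7.98 in cKO and 8.30 in WT) and Smchd1 (7.64 in cKO and 7.94 in WT) fell. The H3K9 methyltransferase Setdb1 (7.97 in cKO and 7.68 in WT) rose. The largest of these 5 differences was that of Eed, at -0.36.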

How the data were processed

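Total RNA of 13 tumours (7 cKO, 6 WT) was amplified and hybridised to 1-colour arrays. The authors deposited 1 log2 value per probe set and array, made with RMA per the submitters' processing notes. The notes state neither the RMA version nor any further step. RMA in its standard form corrects background, equalises the arrays' distributions and combines the probes. The deposited values still differed in spread between the arrays and between the groups, as given below. Of 45141 probe sets, 104 were array controls; 28898 had 1 gene symbol in the platform annotation, 551 several and 15588 none. Members were matched through 1 symbol only, and all 38 were found in RefSeq (GRCm38.p6) by gene number.

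The fits used limma 3.58.1 under R 4.3.3 (lmFit, eBayes, two-sided, Benjamini-Hochberg over all 45037 probe sets, threshold 0.05, no covariate), without a filter, and tested on simulated data. The simulated arrays varied independently, so they could not show how either fit behaves where neighbours mirror each other. The pair term joined arrays whose deviations correlated below -0.5. Replicate numbers shared by the groups (4) did not pair samples (deviations correlated between -0.28 and 0.05). No 2 arrays were identical (0 pairs), and array medians ran from 5.09 to 5.14. The SD over all probe sets of an array ran from 1.83 to 1.88 in cKO and from 1.91 to 1.94 in WT tumours. These ranges did not overlap, and the part of this in the differences was not tested. Precision depends on how many arrays there are. The alternatives were other normalizations, filters, priors, array weights, a block and leaving out each tumour.

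Members and lists were chosen with earlier results of these data known. Named were members called with a difference of at least 0.5 in full, other called members by their difference, 12 preset members whatever they did (those without a probe set only by name), and up to 4 called genes of each other list by smallest p; Krt5 and Krt14 were added to check the tissue, Snrpb and Mcts1 as copies, and Eed because it was among 4 that fell. Where all tumours of both groups lay below background no fold is given; where those of 1 group did, the fold is a lower bound, and none is given where that bound is under 1. Figures were drawn with matplotlib 3.10.9.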

Additional observations from a re-analysis of the deposited data

Results flagged for a closer look

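Of 164 groups of tumours (82 probe sets in each genotype), 5 had a tumour far from the rest of its group, and chance flags about 5% of groups. Rian probe set 3 was highest in cKO replicate 6, at 4.07, with the nearest cKO tumour at 3.90, all below background. Grb10 probe set 3 was highest in the same tumour, at 4.47, with the nearest at 4.24. H13 probe set 2 was lowest in cKO replicate 8, at 6.45, with the nearest at 6.75. Ppp1r9a probe set 1 was highest in cKO replicate 3, at 5.44, with the nearest at 4.98. Zdbf2 was highest in WT replicate 8, at 4.68, with the nearest at 4.58.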

How the results depend on the processing

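Of the 39 called imprinted probe sets, 21 stayed called with the pair term, 18 with the replicate number as a block, 37 after quantile normalization, and 37 to 39 when any 1 tumour was left out; no called probe set changed sign under any alternative run. Probe sets called higher (24) numbered 15 with the pair term, 11 above the 50th percentile of mean level, 13 with the replicate block and 11 with 1 probe set tested per gene; those called lower (15) numbered 6, 7, 5 and 7. Genes called higher (11) numbered 7 with the pair term and 6 above the 50th percentile, and genes called lower (7) numbered 3, 3 and, with the replicate block, 3. All probe sets called (21565) numbered 12169 with the pair term, 9936 above the 50th percentile (3926 higher and 6010 lower, against 11009 and 10556), 8955 with the replicate block and 7830 with 1 per gene. Leaving out 1 tumour gave 23 to 25 probe sets higher and 13 to 16 lower, 11 to 12 genes higher and 6 to 8 lower, and 19362 to 20914 of all probe sets. Of the probe sets called in both fits, 6 were not called with the replicate block, which follows numbers that did not pair samples: Kcnq1ot1 probe set 4 (-0.35, adjusted p = 0.134), Gnas, Zim1, Rasgrf1 probe set 3 and Ppp1r9a probe sets 2 and 4. Genes called with the pair term numbered 5 of the imprint regulators (11), 3 of the keratinocyte genes (5), 4 of the macrophage genes (7) and 6 of the other imprinted genes (13). The replicate block left 6, 3, 3 and 6 of these, 1 of the adipocyte genes (4) and 0 of the insulin-like growth factor axis (4) by limma, where 2 had an unadjusted p under 0.05. Above the 50th percentile 2 of that axis, 3 macrophage genes, 1 adipocyte gene and 1 skeletal muscle gene (7) were called, and above the 25th percentile 2 adipocyte genes. The brighter Ehmt2 probe set (0.13) was called higher after quantile normalization (0.24), and ranged from 0.0745 to 0.173 with 1 tumour left out, being called without WT replicate 9. The array-weight fit stopped before full convergence. Blcap was not called after quantile normalization (-0.40, adjusted p = 0.0711). With the replicate block, a tumour whose number occurs in only 1 group adds nothing to the difference. That fit therefore rests on the 4 replicate numbers shared by the groups. Beyond this, the causes were not tested, except that fewer probe sets were tested above a filter. Signal near background limits Peg3, Zim1, Gnas, Rian and the dim Meg3 probe sets.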

Other observations

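Imprinted genes outside the 47 listed were read from a second list, of which 27 of 40 were measured. By the brightest probe set 8 were called higher and 5 lower in cKO tumours (median difference 0.05), and in both fits 4 rose and 2 fell. These counts lie near the shares over all genes (46.5% called, and 26.2% in both fits). Slc38a4, a paternal amino acid transporter gene, averaged 9.92 ± 0.58 in cKO and 8.43 ± 0.65 in WT tumours (SD, n = 7 and 6), 2.82-fold higher in cKO (limma adjusted p = 0.00195, and 0.0236 with the pair term), and its groups overlapped. Airn, the paternal non-coding RNA that runs antisense to Igf2r, averaged 7.65 ± 0.13 in cKO and 8.04 ± 0.13 in WT tumours, 1.32-fold lower in cKO with no overlap. Pon2, a paraoxonase, averaged 9.48 in cKO and 9.91 in WT tumours. Slc22a2, an organic cation transporter gene, was above background only in cKO tumours (4.38, against 4.16 in WT). Igf2r, which Airn silences on the paternal copy, was not analysed here.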
